A study of Mus musculus with 8 samples.

Results

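The antiviral interferon-stimulated genes are a set of 42 mouse genes, chosen by symbol, whose transcription is switched on by interferon and whose products act on viral RNA, viral DNA or the infected cell. The interferon-inducible GTPases and the IRF and STAT transcription factors were left out of the set, apart from the dynamin-like Mx genes. Of the 42 symbols, 40 matched a row in both deposited tables, out of 14485 genes in either table, while Ifi44l and Ifi211 matched none and were not analysed here. RNA came from macrophages grown from the bone marrow of 12-week-old female mice, cultured for 7 days with 30% medium conditioned by L929, a fibroblast line used for the M-CSF it secretes, and replated in 5%. The groups were NIK KO with IL-4, WT with IL-4, NIK KO with PBS and WT with PBS, each of 2 libraries, one from each of 2 mice per genotype. NIK KO stands for a knockout of NF-κB-inducing kinase, a kinase at the head of the noncanonical NF-κB pathway. IL-4, the cytokine that drives alternative activation of macrophages, was given at 20 ng/mL for 6 hours, and the same 4 mice supplied both treatments. The sources used here do not say how the knockout was made, which strain the mice had or whether the WT mice were littermates.

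Type I interferon binds a receptor made of IFNAR1 and IFNAR2, whose kinases JAK1 and TYK2 phosphorylate transcription factors of the STAT family. Together with IRF9 these form ISGF3, a complex that binds a DNA element called the interferon-stimulated response element (ISRE) in the promoters of its target genes. Macrophages in culture keep a standing level of these transcripts through small amounts of interferon that they release themselves. IL-4 signals through a different factor, STAT6, and induces the inhibitor SOCS1, which is known to restrain interferon signalling.

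RefSeq windows of build GRCm38.p6, which run from 250 bases before a transcription start to 50 bases from it on, were available for 31 of the 42 symbols. The core of the ISRE, searched as GAAANNGAAA on both strands, was found in the windows of 18 of these 31 genes (58.1%), against 3.99% of 27025 genes with a window. The stretches below show the number and spacing of cores in 8 genes, among them 2 pairs of copies, beside Cmpk2 without one. They are printed 5′ to 3′ on the strand of the gene with ISRE cores in capitals. Matches that overlap run together as one block of capitals, as in the 3 overlapping matches of Isg15, and the last stretch, of Cmpk2, holds none.
Ifit3b (chr19:34607729-34607852, plus strand): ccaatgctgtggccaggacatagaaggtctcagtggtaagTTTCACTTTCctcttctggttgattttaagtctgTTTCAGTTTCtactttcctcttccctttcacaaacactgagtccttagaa
Ifit3 (chr19:34583333-34583456, plus strand): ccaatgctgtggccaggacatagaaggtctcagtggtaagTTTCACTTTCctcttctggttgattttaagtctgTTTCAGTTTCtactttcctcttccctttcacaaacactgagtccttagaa
Ifit1 (chr19:34640745-34640853, plus strand): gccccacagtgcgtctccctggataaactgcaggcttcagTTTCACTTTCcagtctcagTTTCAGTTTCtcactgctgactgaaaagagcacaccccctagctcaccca
Isg15 (chr4:156200835-156200936, minus strand): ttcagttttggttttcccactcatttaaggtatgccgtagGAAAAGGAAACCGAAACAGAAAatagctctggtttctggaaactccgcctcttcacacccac
Rsad2 (chr12:26456523-26456612, minus strand): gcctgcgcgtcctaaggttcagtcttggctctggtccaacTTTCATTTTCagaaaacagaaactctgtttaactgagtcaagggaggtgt
Bst2 (chr8:71537547-71537642, minus strand): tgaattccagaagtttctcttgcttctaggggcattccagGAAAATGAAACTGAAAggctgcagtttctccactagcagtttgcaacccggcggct
Oas1a (chr5:120907526-120907585, minus strand): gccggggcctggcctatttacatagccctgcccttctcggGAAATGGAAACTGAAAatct
Oas1g (chr5:120887614-120887671, minus strand): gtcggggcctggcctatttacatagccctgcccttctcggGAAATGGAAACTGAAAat
Cmpk2 (chr12:26469115-26469214, plus strand): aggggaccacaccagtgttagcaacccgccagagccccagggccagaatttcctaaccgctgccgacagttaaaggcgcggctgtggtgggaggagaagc
In the windows of Ifit3b and Ifit3, which are tandem copies, the sequence was identical over a run of 169 bases and the pair of cores lay 32 bases farther from the start in Ifit3b. Oas1a and Oas1g, also copies, shared a run of 73 bases, with both overlapping cores directly before the start. In Ddx58, Eif2ak2, Ifih1 and the second start of Trim30a the core lay after the start, and Ifi205 had one on either side.

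Elements of other factors were also searched on both strands. The GAS element of STAT dimers, searched as TTCNNNGAA, was present in 5 of the 31 genes (16.1%), against 9.55% of all genes. Its form with a longer spacer, TTCNNNNGAA, which STAT6 prefers, was present in 7 (22.6%), against 8.01% of all. In Oas1a and Oas1g one match to the STAT6 form overlaps the first ISRE core, and in Bst2 a GAS match does. A loose κB core, searched as GGGNNNNNCC, was present in 16 genes (51.6%), against 53.5% of all. A match says only that these letters stand in the window, and the 11 measured genes without a window are Dhx58, Ifi204, Ifi27l2a, Mx1, Mx2, Oas2, Parp14, Parp9, Rtp4, Usp18 and Zbp1.

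**Figure D1:**
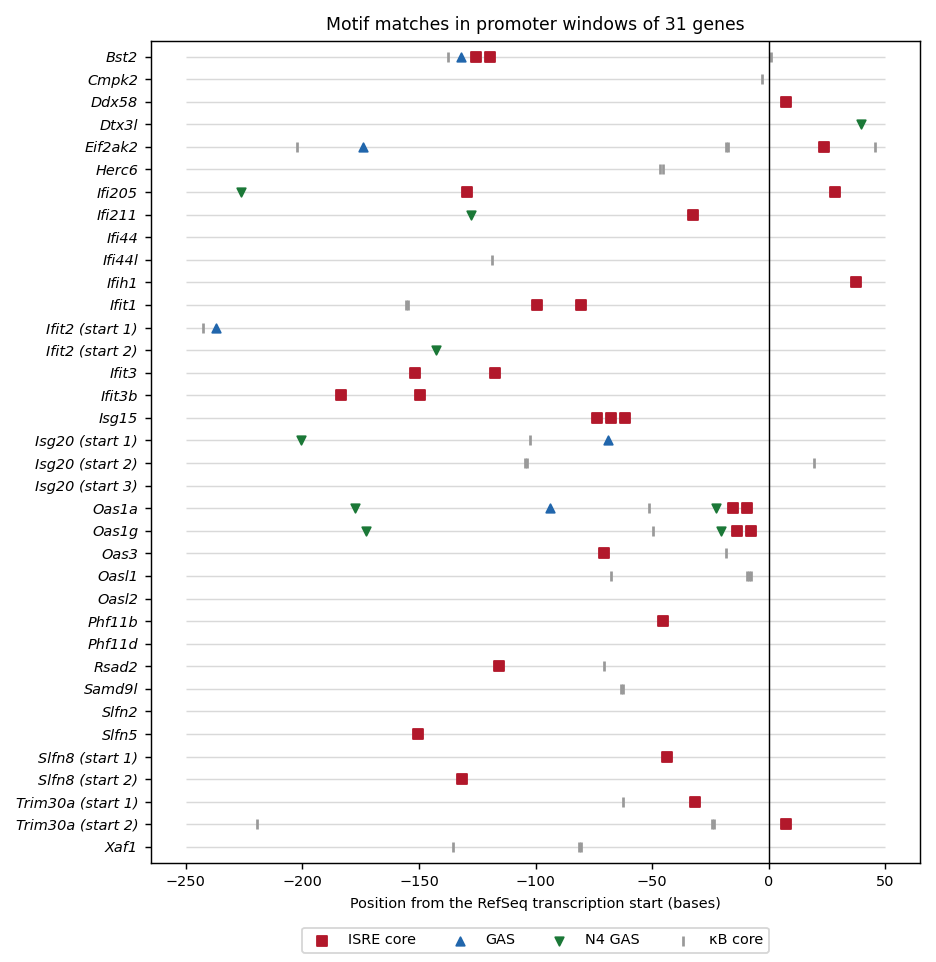
Positions of motif matches in the promoter windows of 31 interferon-stimulated genes, in bases from the RefSeq transcription start on the horizontal axis, with 1 row per start. Red squares mark ISRE cores, found in 18 genes, triangles mark both GAS forms, and grey ticks mark κB cores.

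The authors' deposited tables give 1 fold change, standard error and base mean per gene, over 4 libraries each, so no value per library is shown and library depth is unknown. Levels below are mean normalized counts of 2 libraries, worked out from each gene's base mean and fold change. The gene of NIK itself, Map3k14, stood above WT in libraries labelled NIK KO, with 832 against 418 in WT with IL-4 and 902 against 425 in WT with PBS (log2 fold changes of 0.99 ± 0.22 and 1.09 ± 0.28 in the authors' deposited tables, by DESeq2 adjusted p = 0.00782 with IL-4 and 0.176 with PBS). The direction, NIK KO over WT, is named for the IL-4 table and is not stated for the PBS table, in which Map3k14, Kpna2, Gm10184 and Gdf3 have the sign they have with IL-4. The deposited log2 fold changes with IL-4 and with PBS were -3.93 ± 0.25 and -4.58 ± 0.28 for Kpna2. They were 8.44 ± 0.42 and 13.84 ± 1.47 for Gm10184, and -1.56 ± 0.31 and -1.43 ± 0.32 for Gdf3. If the PBS table ran the other way, its genotype differences would change sign and its NIK KO and WT levels would change places. The IL-4 over PBS values of each genotype and the test of the difference between treatments would then change too, while those by base mean would not. All 10 macrophage markers looked up were measured, 7 of them higher in NIK KO with IL-4 and 6 with PBS, and 0 were called by DESeq2. Their levels summed to 481211 in NIK KO and 505802 in WT with IL-4, and to 652077 in NIK KO and 639599 in WT with PBS. Most of each sum was Lyz2, at 318214 in NIK KO and 370074 in WT with IL-4, and at 521159 in NIK KO and 513620 in WT with PBS. The sums therefore say little about the other markers. Adgre1, the gene of F4/80, had an unadjusted DESeq2 p of 0.00320 with IL-4 (log2 fold change of 0.54 ± 0.18 in the authors' deposited table, adjusted p = 0.672). Relative to the median gene, Cd14 was at -2.23 in NIK KO and -2.25 in WT, and Fcgr1 at -1.62 in NIK KO and -1.64 in WT. Their part in the results was not tested.

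Among markers of other cells, the fibroblast and erythroid sums were highest in WT with IL-4, apart from the other groups, and the conventional dendritic cell sum differed by treatment. That list, 8 of 8 measured, summed to 2571 in NIK KO and 2750.4 in WT with IL-4, and to 538 in NIK KO and 533 in WT with PBS. Most of it was Itgax, which macrophages can also express, at 1710 in NIK KO and 1772 in WT with IL-4, and at 278 in NIK KO and 291 in WT with PBS. Batf3 stood at 428 in NIK KO and 519 in WT with IL-4, and at 26.3 in NIK KO and 25.3 in WT with PBS, whereas Xcr1 and Clec9a were at 20.6 or less in each group. The fibroblast list, 9 of 10 measured with IL-4 and 7 of these lower, summed to 171 in NIK KO and 444 in WT with IL-4, and to 109 in NIK KO and 120 in WT with PBS. The erythroid list, 6 of 9 measured with IL-4 and 4 of these lower, summed to 158 in NIK KO and 344 in WT with IL-4, and to 103 in NIK KO and 96.1 in WT with PBS. DESeq2 called 0 of the erythroid markers in either table. At an unadjusted DESeq2 p under 0.05 with IL-4 stood 4 fibroblast and 4 erythroid markers, all lower, against 2.95% of all genes in either direction. Plasmacytoid dendritic cells, a specialised source of interferon, are marked by Siglech, which stood at 11.7 in NIK KO and 21.7 in WT with IL-4, and at 4.81 in NIK KO and 2.58 in WT with PBS. The other 6 of the plasmacytoid list outside the set brought its sum to 999 in NIK KO and 843 in WT with IL-4, and to 705 in NIK KO and 815 in WT with PBS. Most of that sum was Tcf4, at 821 in NIK KO and 668 in WT with IL-4, and at 615 in NIK KO and 710 in WT with PBS. Of all 8 plasmacytoid markers, Bst2 included, 4 were higher in NIK KO and 4 lower with IL-4, and 2 higher and 6 lower with PBS. The neutrophil list summed to 205 to 292 over the 4 groups, the T and NK list to 20.6 to 32.8 and the B cell list to 79.7 to 127, and Cd3e, Cd3d, Cd3g and Ms4a1 matched no row. The part of these cells in the results was not tested, and in bulk RNA fewer cells of a type and less RNA per cell cannot be told apart.

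In the libraries labelled NIK KO, nearly the whole set stood slightly above WT, and no single gene passed the test. With IL-4, 36 of the 40 genes were higher and 4 lower, with a median log2 fold change of 0.17, where 52.8% of genes of base mean 100 or more were higher and their median was 0.01. With PBS, 38 were higher and 2 lower, with a median of 0.27, against 50.1% of genes of base mean 100 or more and a median of 0.00. The 40 genes share an inducer and the same 2 mice per genotype, so they are not replicates of a genotype. No test was run on these counts. The authors' DESeq2 Wald test called 0 of the 40 at an adjusted p under 0.05 in either table, and the smallest adjusted p was 1.00 in both. Over all genes that test called 0.120% with IL-4 and 0.0366% with PBS. At an unadjusted DESeq2 p under 0.05 stood 4 of the 40 with IL-4, all higher, against 2.95% of all genes in either direction and 1.62% higher. With PBS it was also 4 of the 40, all higher, against 1.24% in either direction and 0.534% higher. For 16 of the 40 genes in each table the fold change was above its own standard error, against 14.1% with IL-4 and 6.91% with PBS among genes of base mean 100 or more.

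**Figure D2:**
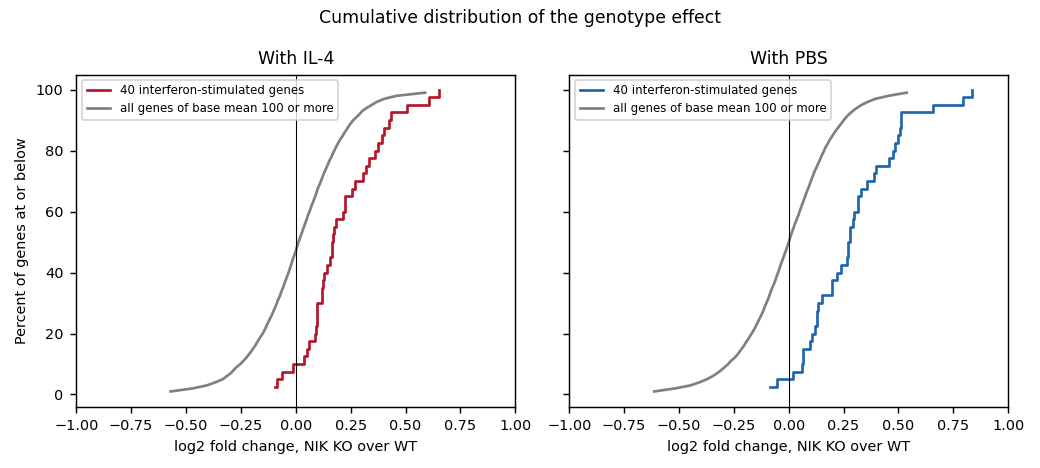
Cumulative distribution of the log2 fold change, NIK KO over WT, with IL-4 (left) and PBS (right). The colored step is the 40 interferon-stimulated genes, with medians of 0.17 and 0.27, and the grey line is all genes of base mean 100 or more, drawn from their 1st to their 99th percentile.

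The genes with an unadjusted p under 0.05 were Parp14, Rsad2, Slfn5 and Dtx3l with IL-4, and Ifit3b, Rsad2, Cmpk2 and Ifi204 with PBS. Rsad2 was the one in both groups of 4. All of these are described with their families below, and none passed the adjustment over all genes.

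**Figure D3:**
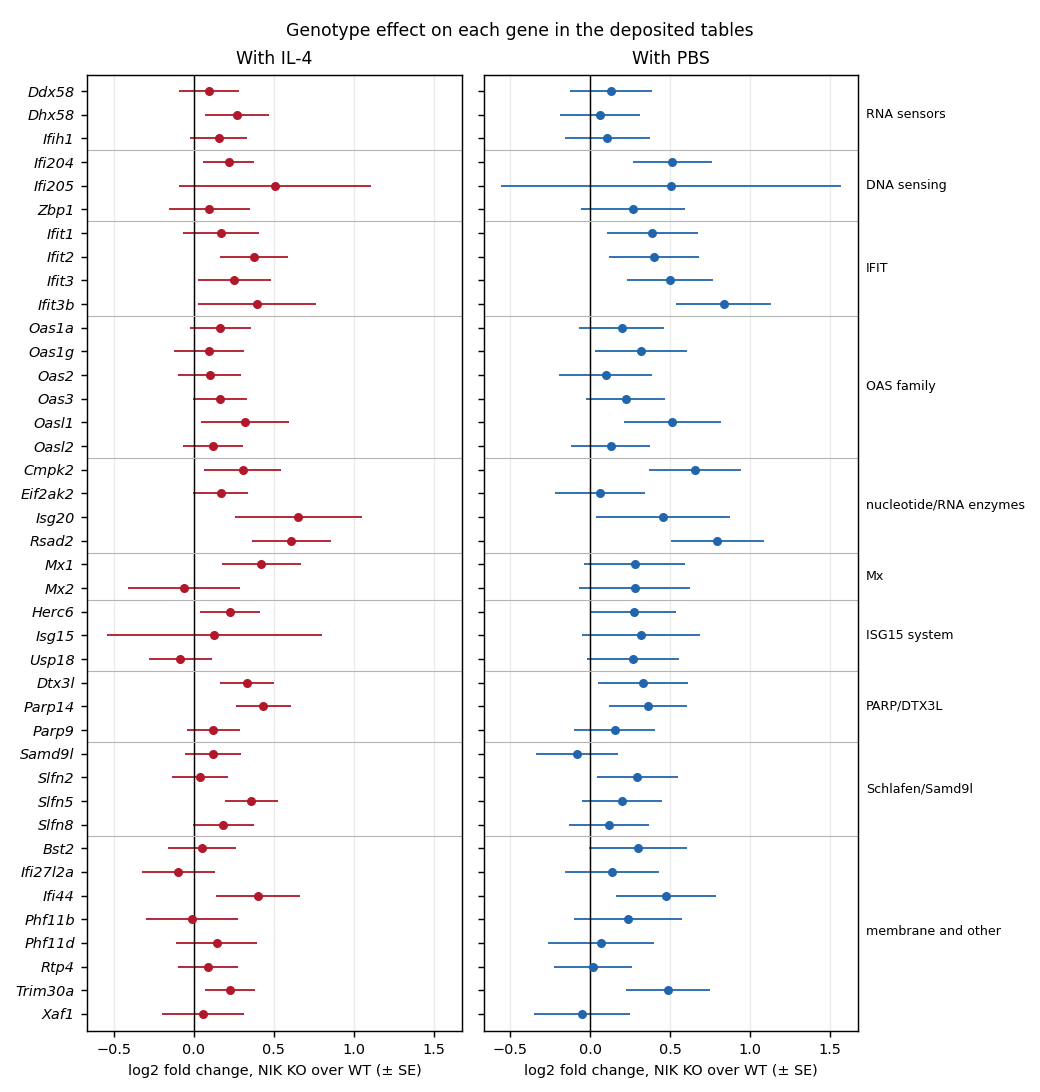
Log2 fold change, NIK KO over WT, of each of the 40 genes with its standard error, with IL-4 (left) and PBS (right), grouped by function. Of the 40 points 36 lie right of 0 with IL-4 and 38 with PBS, and the bars of all but 16 in each panel reach 0.

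IL-4 and PBS levels differed far more than genotypes did. Relative to the median gene, levels with IL-4 were below those with PBS for 39 of the 40 genes in NIK KO and 38 of 40 in WT, with median log2 differences of -0.80 in NIK KO and -0.77 in WT. Among 9423 genes with an average base mean of 100 or more, 49.6% were below the median gene in each genotype. A level lower by more than 1 on the log2 scale was found for 14 of the 40 in NIK KO, against 2.39% of those 9423 genes, and for 14 in WT, against 2.37%. None of the 40 was higher by more than 1 in either genotype. The tables were normalized separately, so these differences carry no test. The median gene itself stood 0.28 higher with IL-4 in NIK KO and 0.26 higher in WT, and this shift was subtracted. An approximate standard error, from the deposited standard errors with libraries taken as independent, had values from 0.21 to 0.86 per gene and genotype.

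**Figure D4:**
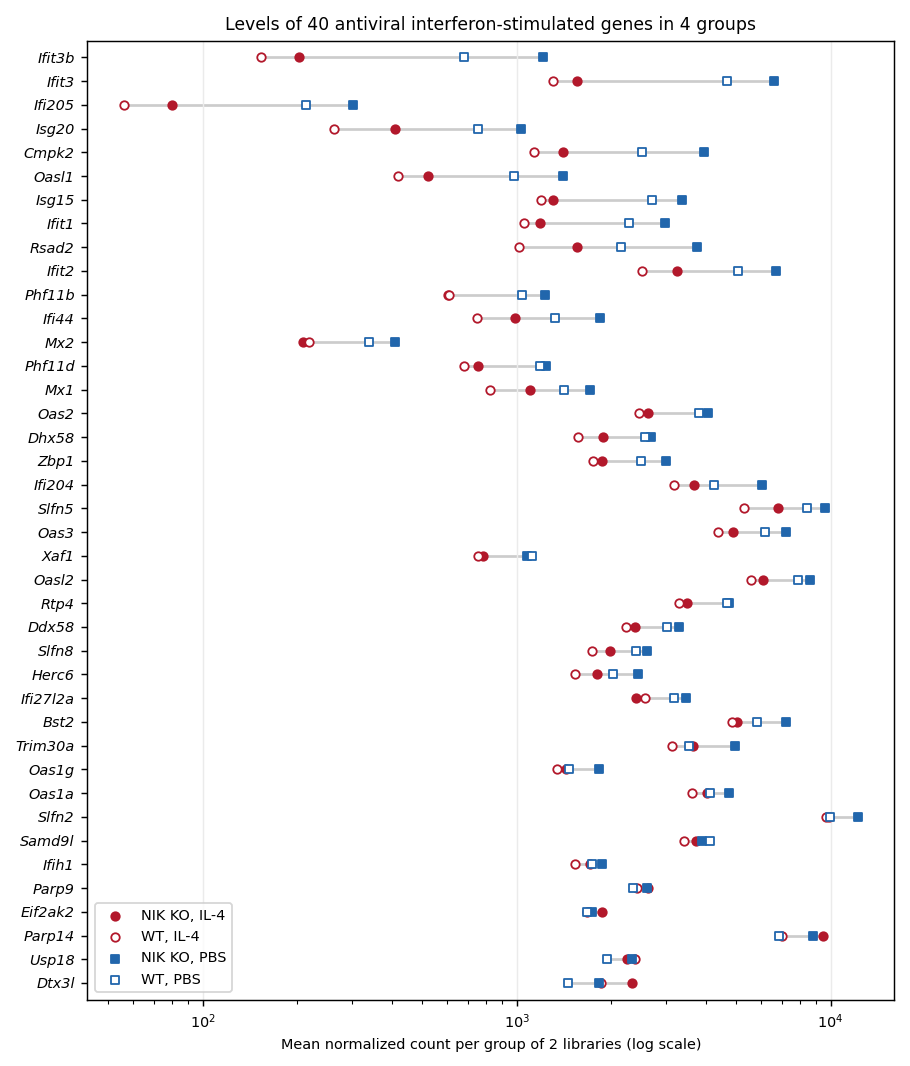
Mean normalized count (log scale) of each gene in the 4 groups, each a mean of 2 libraries, sorted by the difference between IL-4 and PBS. Filled symbols are NIK KO and open symbols WT, red is IL-4 and blue PBS. Ifit3b and Ifit3 at the top differ most between treatments by base mean, and Dtx3l at the bottom is higher with IL-4.

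The IFIT genes, whose products bind viral RNA with unusual ends and block its translation, held the 2 largest differences between treatments by base mean, Ifit3b and Ifit3. In WT, Ifi205 lay between them, at -2.19 with an approximate standard error of 0.86. Ifit3b (ENSMUSG00000062488) stood at 202 in NIK KO and 154 in WT with IL-4, and at 1213 in NIK KO and 681 in WT with PBS. Relative to the median gene this was -2.86 in NIK KO and -2.41 in WT. Its genotype difference was 0.39 ± 0.37 with IL-4 and 0.83 ± 0.30 with PBS in the authors' deposited tables. The PBS value is a 1.78-fold difference, with an unadjusted DESeq2 p of 0.00520.
Ifit3 (ENSMUSG00000074896), which stabilises Ifit1 on RNA in human cells, stood at 1560 in NIK KO and 1308 in WT with IL-4, and at 6605 in NIK KO and 4674 in WT with PBS. The 2 copies share 61.8% of the 31-base words of the longest Ifit3 transcript, so the split of reads between them is uncertain. Their sum was 1762 in NIK KO and 1462 in WT with IL-4, and 7818 in NIK KO and 5355 in WT with PBS. Summed, the pair was at -2.43 in NIK KO and -2.14 in WT relative to the median gene, close to Ifit3 alone at -2.36 in NIK KO and -2.10 in WT.
Ifit1, which binds RNA caps that lack methylation, stood at 1191 in NIK KO and 1056 in WT with IL-4, and at 2975 in NIK KO and 2276 in WT with PBS. Ifit2 stood at 3253 in NIK KO and 2507 in WT with IL-4, and at 6686 in NIK KO and 5076 in WT with PBS. Both were lower with IL-4, Ifit1 at -1.60 in NIK KO and -1.37 in WT, and Ifit2 at -1.32 in NIK KO and -1.28 in WT. All 4 IFIT genes lie next to each other on chromosome 19, and all 4 were higher in NIK KO in both tables.

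Among enzymes of nucleotides and RNA, Rsad2 had an unadjusted p under 0.05 for genotype in both tables and Cmpk2 with PBS, and neither passed the adjustment. Rsad2 (ENSMUSG00000020641) encodes viperin, which makes a chain-terminating analogue of CTP. It stood at 1553 in NIK KO and 1018 in WT with IL-4, and at 3741 in NIK KO and 2157 in WT with PBS. The authors' deposited tables give Rsad2 a log2 fold change of 0.61 ± 0.25 with IL-4 and 0.79 ± 0.29 with PBS (unadjusted DESeq2 p = 0.0131 and 0.00596, adjusted p = 1.00 each).
Cmpk2 (ENSMUSG00000020638), its neighbour on chromosome 12, encodes a mitochondrial nucleotide kinase that supplies CTP. It stood at 1406 in NIK KO and 1137 in WT with IL-4, and at 3957 in NIK KO and 2512 in WT with PBS, with log2 fold changes of 0.31 ± 0.24 and 0.66 ± 0.29 in the authors' deposited tables. Relative to the median gene both neighbours were lower with IL-4, Rsad2 at -1.54 in NIK KO and -1.35 in WT, and Cmpk2 at -1.77 in NIK KO and -1.41 in WT. Rsad2 has an ISRE core before its start and Cmpk2 has none in its window.
Isg20, an exonuclease that degrades viral RNA, had the largest genotype difference with IL-4, 0.65 ± 0.40 in the authors' deposited table. It stood at 411 in NIK KO and 262 in WT with IL-4, and at 1031 in NIK KO and 752 in WT with PBS. Eif2ak2, the gene of PKR, which halts translation on double-stranded RNA, was nearly level between all groups. It stood at 1877 in NIK KO and 1671 in WT with IL-4, and at 1742 in NIK KO and 1670 in WT with PBS.

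The active enzymes of the oligoadenylate synthetase family sense double-stranded RNA and make the messenger that activates RNase L. All 6 genes of the family were higher in NIK KO in both tables. Their log2 fold changes were from 0.09 to 0.32 with IL-4 and from 0.10 to 0.51 with PBS in the authors' deposited tables. Oasl1, which in mice holds back translation of the factor IRF7, was at the top of both ranges. It stood at 523 in NIK KO and 419 in WT with IL-4, and at 1406 in NIK KO and 985 in WT with PBS. Its level with IL-4 was -1.70 in NIK KO and -1.50 in WT relative to the median gene, whereas Oas1a was at -0.50 in NIK KO and -0.46 in WT. The gap between these 2 family members, in either genotype, is larger than their approximate standard errors of 0.29 for Oasl1 and 0.23 for Oas1a.
Oas2, Oas3 and Oasl2 lay between them, from -0.91 to -0.76 over both genotypes. Oas1a stood at 4054 in NIK KO and 3614 in WT with IL-4, and at 4747 in NIK KO and 4143 in WT with PBS. Oas1g stood at 1440.1 in NIK KO and 1348 in WT with IL-4, and at 1831 in NIK KO and 1471 in WT with PBS. Other genes hold 68.8% of the words of Oas1a and 65.4% of those of Oas1g, and the sum of both was 5495 in NIK KO and 4962 in WT with IL-4, and 6578 in NIK KO and 5615 in WT with PBS. The closely linked Oasl1 and Oasl2 thus differed in how far they were lower with IL-4, at -1.62 and -0.78 by base mean, as did the members of the Oas cluster proper, from -0.91 for Oas2 to -0.49 for Oas1a.

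The cytosolic RNA sensors differed little by genotype. Ddx58, the gene of RIG-I, which detects short RNA with a triphosphate end, stood at 2385 in NIK KO and 2236 in WT with IL-4, and at 3286 in NIK KO and 3008 in WT with PBS. Ifih1, the gene of MDA5, a sensor of long double-stranded RNA, stood at 1708 in NIK KO and 1534 in WT with IL-4, and at 1877 in NIK KO and 1742 in WT with PBS. Dhx58, the gene of LGP2, which modulates both, stood at 1888 in NIK KO and 1565 in WT with IL-4, and at 2675 in NIK KO and 2561 in WT with PBS. The genotype differences of the 3 sensors were between 0.06 and 0.27 in the authors' deposited tables. With IL-4 their levels relative to the median gene were between -0.97 and -0.41 over both genotypes.

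Of the DNA-sensing genes, Ifi204 (ENSMUSG00000073489) had the smallest p for genotype. It encodes a protein of the p200 family that binds DNA and feeds into STING signalling. It stood at 3683 in NIK KO and 3169 in WT with IL-4, and at 6055 in NIK KO and 4243 in WT with PBS, with a log2 fold change of 0.22 ± 0.16 with IL-4 and 0.51 ± 0.25 with PBS in the authors' deposited tables (unadjusted DESeq2 p = 0.167 and 0.0384). With 46.0% of its words in other genes, above all Ifi211, the assignment of its reads is uncertain.
Ifi205, of the same family, was the lowest member of all, at 79.9 in NIK KO and 56.2 in WT with IL-4, and at 302 in NIK KO and 213 in WT with PBS. Its fold change with PBS, 0.51 ± 1.06 in the authors' deposited table, has the widest error of the set. Zbp1, a sensor of Z-form nucleic acid that can start necroptosis, stood at 1876 in NIK KO and 1753 in WT with IL-4, and at 2988 in NIK KO and 2482 in WT with PBS.

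In the ISG15 system, the modifier was far lower with IL-4 and its protease was not. Isg15, a ubiquitin-like protein joined to other proteins, stood at 1311 in NIK KO and 1199 in WT with IL-4, and at 3359 in NIK KO and 2699 in WT with PBS. Usp18, which removes ISG15 and also blocks the IFNAR2 receptor chain, stood at 2249 in NIK KO and 2382 in WT with IL-4, and at 2326 in NIK KO and 1935 in WT with PBS. Isg15 was thus at -1.63 in NIK KO and -1.44 in WT relative to the median gene, and Usp18 at -0.32 in NIK KO and 0.04 in WT. The approximate standard error per genotype was 0.54 for Isg15 and 0.25 for Usp18.
The genotype difference of Usp18 was -0.08 ± 0.20 with IL-4 and 0.27 ± 0.29 with PBS in the authors' deposited tables, and that of Isg15 was 0.13 ± 0.67 with IL-4 and 0.32 ± 0.37 with PBS. Herc6, the main ligase of ISG15 in mice, stood at 1798 in NIK KO and 1539 in WT with IL-4, and at 2444 in NIK KO and 2027 in WT with PBS. The Mx genes, dynamin-like proteins that trap viral nucleocapsids, were lower with IL-4 in both genotypes, Mx1 at -0.91 in NIK KO and -1.04 in WT, and Mx2 at -1.25 in NIK KO and -0.90 in WT. Mx2 stood at 208 in NIK KO and 217 in WT with IL-4, and at 410 in NIK KO and 338 in WT with PBS.

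The ADP-ribosylation genes on chromosome 16 were close to the median gene in the difference between IL-4 and PBS. Parp14 (ENSMUSG00000034422), a mono-ADP-ribosyltransferase also known as a coactivator of STAT6, stood at 9449 in NIK KO and 6994 in WT with IL-4, and at 8781 in NIK KO and 6848 in WT with PBS. It had the smallest unadjusted p of the set with IL-4, 0.0122 by DESeq2, for a log2 fold change of 0.43 ± 0.17 in the authors' deposited table, and 0.36 ± 0.24 with PBS.
Dtx3l (ENSMUSG00000049502), a ubiquitin ligase that works with PARP9, stood at 2338 in NIK KO and 1856 in WT with IL-4, and at 1836 in NIK KO and 1463 in WT with PBS. Its log2 fold change was 0.33 ± 0.17 with IL-4 (unadjusted DESeq2 p = 0.0490) and 0.33 ± 0.28 with PBS in the authors' deposited tables. Parp9 stood at 2630 in NIK KO and 2415 in WT with IL-4, and at 2607 in NIK KO and 2347 in WT with PBS.
Relative to the median gene, Dtx3l was at 0.07 in NIK KO and 0.08 in WT, Parp14 at -0.17 in NIK KO and -0.23 in WT, and Parp9 at -0.26 in NIK KO and -0.22 in WT. Without subtraction of the median shift, Parp9, Parp14 and Eif2ak2 turn slightly positive in both genotypes, at 0.11 or less, and Usp18 turns positive by base mean. The other 35 genes below the median gene by base mean keep that side.

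The Schlafen genes and Samd9l, which restrict growth and viral translation, were lower with IL-4 by less than 1, and 1 of them, Slfn5, had an unadjusted p under 0.05 for genotype. Slfn5 (ENSMUSG00000054404) stood at 6807 in NIK KO and 5304 in WT with IL-4, and at 9611 in NIK KO and 8382 in WT with PBS. Its log2 fold change was 0.36 ± 0.16 with IL-4 and 0.20 ± 0.25 with PBS in the authors' deposited tables (unadjusted DESeq2 p = 0.0284 and 0.432). Slfn2, known from mice for its need in T cell quiescence, stood at 9893 in NIK KO and 9640 in WT with IL-4, and at 12203 in NIK KO and 9953 in WT with PBS. Samd9l stood at 3721 in NIK KO and 3423 in WT with IL-4, and at 3888 in NIK KO and 4124 in WT with PBS, with a PBS log2 fold change of -0.09 ± 0.26 in the authors' deposited table.

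Membrane proteins and the remaining genes covered the middle of the set. Bst2, the gene of tetherin, which holds budding virions on the cell, stood at 5020 in NIK KO and 4844 in WT with IL-4, and at 7194 in NIK KO and 5847 in WT with PBS. Per kilobase of longest transcript its level was the highest of the set, at 6338 in NIK KO and 6116 in WT with IL-4, and at 9083 in NIK KO and 7383 in WT with PBS. Trim30a, a ubiquitin ligase of the TRIM family, had genotype differences of 0.23 ± 0.16 with IL-4 and 0.49 ± 0.26 with PBS in the authors' deposited tables, and Ifi44 of 0.40 ± 0.26 with IL-4 and 0.47 ± 0.31 with PBS.
The genes lower in NIK KO were few and near 0. With IL-4 they were Ifi27l2a at -0.10 ± 0.23, Usp18, Mx2 at -0.06 ± 0.35 and Phf11b at -0.01 ± 0.29, and with PBS Samd9l and Xaf1, a partner of the apoptosis inhibitor XIAP, at -0.05 ± 0.30, in the authors' deposited tables. Ifi27l2a stood at 2406 in NIK KO and 2572 in WT with IL-4, and at 3472 in NIK KO and 3162 in WT with PBS. Xaf1 stood at 784 in NIK KO and 753 in WT with IL-4, and at 1076 in NIK KO and 1117 in WT with PBS. These differences are within their standard errors. Phf11b stood at 604 in NIK KO and 609 in WT with IL-4, and at 1227 in NIK KO and 1041 in WT with PBS, and 62.9% of its words are in other genes, chiefly Phf11a. Rtp4, a chaperone of receptors, stood at 3498 in NIK KO and 3288 in WT with IL-4, and at 4742 in NIK KO and 4686 in WT with PBS. By base mean relative to the median gene, Phf11b was at -1.18, Ifi44 at -1.15 and Phf11d at -1.04.

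**Figure D5:**
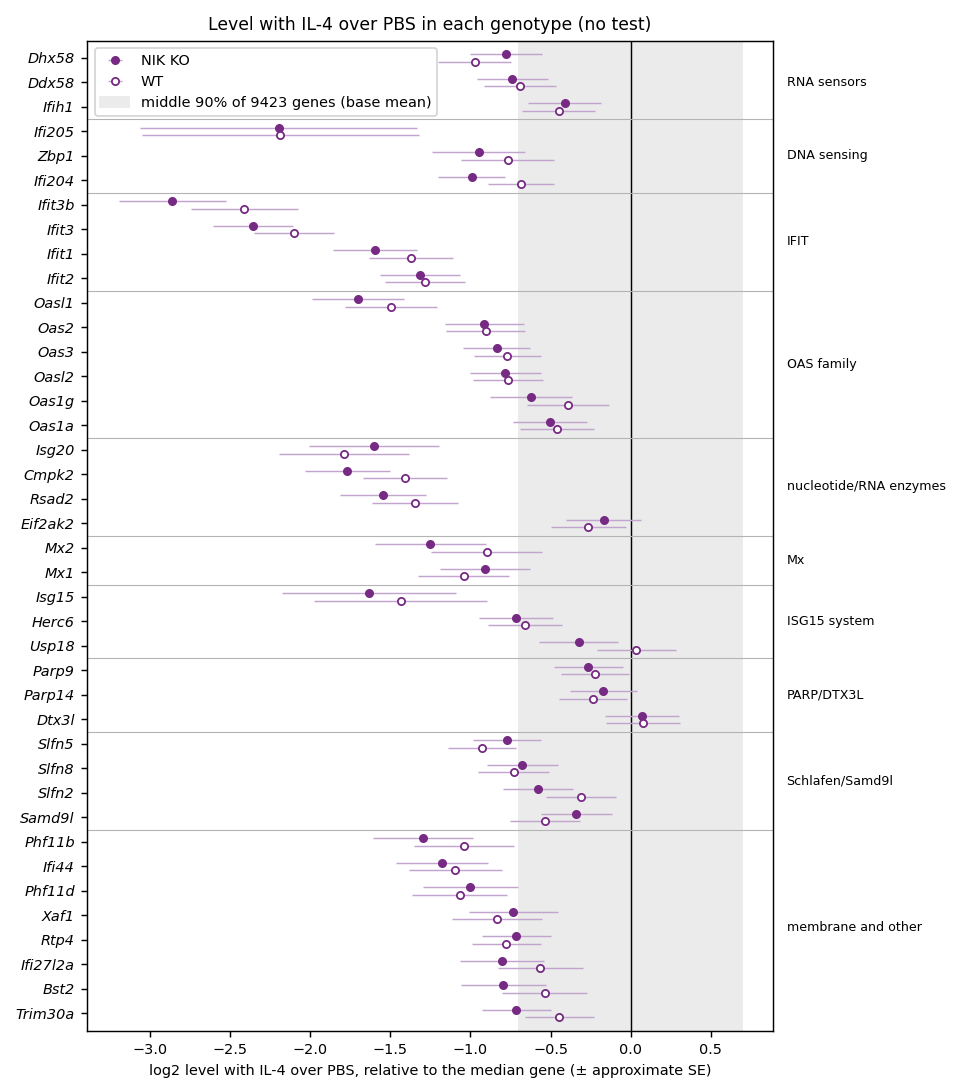
Log2 level with IL-4 over PBS relative to the median gene, in NIK KO (filled) and WT (open), with approximate standard errors, grouped by function. The grey band holds the middle 90% of 9423 genes. Ifit3b, Ifit3 and Ifi205 lie farthest left of it, and Parp9, Parp14, Dtx3l, Usp18 and Eif2ak2 lie near 0.

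Whether the genotype difference itself changed with treatment was tested gene by gene. The difference of the log2 fold changes, IL-4 minus PBS, was set against its standard error by a z test, adjusted over 13384 genes. Of the 40 genes 0 passed by this z test, 0 had an unadjusted p under 0.05, and the smallest adjusted p was 1.00. Over all genes 0.0149% passed, and 0.867% had an unadjusted p under 0.05. The difference was negative for 25 of the 40 and positive for 15, with a median of -0.04, where 50.2% of all genes were negative.
It had values from -0.44 ± 0.48 for Ifit3b to 0.21 ± 0.32 for Dhx58, and the median standard error was 0.35, so differences below that size are within the error. By construction this difference also equals the treatment difference in NIK KO minus that in WT, apart from the shift of the median gene.

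The genotype difference and the treatment difference can be set side by side. By base mean 39 of the 40 genes were below the median gene, against 49.5% of the 9423 genes, and 14 were lower by more than 1, against 2.22%. These 14 genes had a median genotype difference of 0.31 with IL-4 and 0.46 with PBS, with 12 and 14 higher in NIK KO. The other 26 genes had medians of 0.14 with IL-4 and 0.20 with PBS, with 24 higher in each table. Both quantities come from the same libraries, so no correlation is given. The base mean with PBS, used for the split, also holds the NIK KO level with PBS. An error that raises that level moves a gene toward the 14 and raises its PBS genotype difference. The contrast of these medians is therefore not independent of the split and shows no link. The split by ISRE core can be read the same way. The 17 measured genes with a core had a median of -0.81 by base mean, 7 of them beyond -1, and the 12 without had -0.91, with 6 beyond -1.

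By position, 24 of the 40 genes lay within 1 Mb of another in 9 clusters (RefSeq, GRCm38.p6). By base mean, the 4 IFIT genes on chromosome 19 were between -2.69 and -1.30, Rsad2 and Cmpk2 on chromosome 12 at -1.47 and -1.62, and the Parp14, Dtx3l and Parp9 group on chromosome 16 between -0.25 and 0.07. Mx1 and Mx2, also on chromosome 16 but in another cluster, were at -0.97 and -1.09. Slfn5, Slfn8 and Slfn2 on chromosome 11 were between -0.85 and -0.46.

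Upstream genes of the interferon pathway showed no called genotype difference. None of 12 interferon ligand genes looked up, Ifnb1 and Ifng among them, matched a row in either table. Of 8 receptor and Janus kinase genes, 9 genes of STAT and IRF factors, 16 measured sensors and adaptors and 8 inhibitors, DESeq2 called 0 in either table, where it called 0.120% of all genes with IL-4 and 0.0366% with PBS. At an unadjusted DESeq2 p under 0.05 stood the endosomal sensors Tlr7 and Tlr9 with IL-4, both higher in NIK KO, and 0 genes with PBS, where 1.62% and 0.534% of all genes were higher at that level. In the authors' deposited table Tlr7 had a log2 fold change of 0.46 ± 0.20 and Tlr9 of 0.60 ± 0.26 with IL-4 (unadjusted p = 0.0197 and 0.0216, adjusted p = 1.00 each). Of the 9 STAT and IRF genes 8 were higher in NIK KO with IL-4 and 6 with PBS, with medians of 0.22 and 0.07, where 52.8% of genes of base mean 100 or more were higher with IL-4 and 50.1% with PBS.
Relative to the median gene Irf7, the factor that amplifies interferon production, was at -0.54 in NIK KO and -0.51 in WT, and Irf9 at -0.12 in NIK KO and -0.24 in WT.

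Of the type I receptor genes, Ifnar1 was near the median gene and Ifnar2 somewhat lower with IL-4, while Socs1 and Jak2 were higher with IL-4. Ifnar1 stood at 3446 in NIK KO and 3432 in WT with IL-4, and at 2862 in NIK KO and 3008 in WT with PBS, and was at -0.01 in NIK KO and -0.07 in WT relative to the median gene. Ifnar2 was at -0.41 in NIK KO and -0.33 in WT. Socs1, the inhibitor of Janus kinases named above, stood at 1177 in NIK KO and 1144 in WT with IL-4, and at 79.6 in NIK KO and 71.8 in WT with PBS, which relative to the median gene is a log2 difference of 3.61 in NIK KO and 3.73 in WT. Jak2, which serves the interferon γ receptor, was on the same scale at 1.52 in NIK KO and 1.38 in WT. Among the other inhibitors Socs3 was lower with IL-4, at -0.87 in NIK KO and -1.15 in WT, with an approximate standard error of 1.17. Of 18 genes in both tables known to respond to IL-4, 17 in NIK KO and 16 in WT were higher by more than 1, against 3.12% and 2.70% of genes, with Arg1 at 7136 in NIK KO and 8190 in WT with IL-4 and at 17.3 in NIK KO and 30.5 in WT with PBS.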

How the data were processed

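The authors' deposited tables compare NIK KO with WT macrophages, 2 libraries against 2, once with IL-4 (14193 genes) and once with PBS (13676). The submitters' processing notes name Salmon 1.4.0, DESeq2 1.32.0 and build GRCm39, without roles, annotation or filters. The base mean, per the file headers a signal of size-factor-scaled counts averaged over 4 libraries, was deposited with a log2 fold change and its log2 standard error. The Wald statistic was deposited as a score beside p-values and adjusted p-values. The IL-4 table leaves the adjusted p blank for 551 genes, and it was kept blank. Depth per library is unknown, and precision is set by the standard error, whose median among genes of base mean 100 or more was 0.22 with IL-4 and 0.30 with PBS.

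A call is a deposited adjusted p under 0.05. The p-values set each fold change against its deposited standard error, which was estimated with only 2 mice a side. Group levels were recovered from base mean and fold change, and IL-4 over PBS differences were centred on 9148 genes of base mean 100 or more in both tables. Their approximate standard error is the root of the mean of both squared deposited errors. The difference between treatments was tested by a two-sided z test that takes errors as independent, with Benjamini-Hochberg adjustment over 13384 genes. The test was checked on data simulated with independent errors of the deposited size. That check does not cover the mice shared between treatments or the uncertainty of errors estimated from 2 libraries a side. Shared words and transcript lengths are those of the longest GENCODE M21 (GRCm38) transcript, and promoters are from RefSeq GRCm38.p6. The genes and lists were chosen with earlier results of these data known. Described in full were genes with an unadjusted p under 0.05 in either table, those among the 3 highest or lowest by fold change or treatment difference, near-identical copies and examples of each family. Alternatives were other filters, a t distribution, other thresholds, trend subtraction and other scalings. Python 3.11.15, numpy 2.4.6, pandas 2.3.3, scipy 1.17.1 and matplotlib 3.10.9 were used.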

Additional observations from a re-analysis of the deposited data

How the results depend on the processing

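No member was called in either table or in the difference between treatments under the alternatives tried for each: adjustment over genes of base mean 10 or more or 100 or more, a t distribution with 2 degrees of freedom, a threshold of 0.1, removal of genes with over 50% shared words, or an error correlation of 0.5. A count of 0 that stays 0 is no sign of stability in a design of 2 against 2. The median genotype difference was between 0.12 and 0.18 with IL-4 and between 0.23 and 0.29 with PBS over those fits, trends on base mean and transcript length included. Without centring, the median treatment difference was -0.52 in NIK KO and -0.51 in WT, with 11 and 10 genes lower by more than 1. That change is the subtracted shift itself, and under the other scalings and filters the median lay between -0.80 and -0.73 over both genotypes. No paired analysis was possible because the tables hold no values per library, and no library could be left out for the same reason.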
